A study of Mus musculus with 12 samples.

Results

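The comparison set mouse CD8 T cells against mouse CD4 T cells that had both spent 24 h in a splenocyte culture with 50 µM linoleic acid, which is a polyunsaturated fatty acid of plant oils. Its members are 6 of the 12 arrays of the series, chosen by their titles and not by any measured value: 3 arrays of sorted CD8 T cells and 3 of sorted CD4 T cells. The other 6 arrays hold the same cell types, 3 arrays each, from splenocytes cultured for 24 h without the fatty acid, and they serve here as the control culture. The stated aim of the series is to see whether CD4 and CD8 T cells respond differently to linoleic acid. Strain, genotype, sex and age of the mice, the carrier of the fatty acid and the gates of the sort are not stated in the labels. All groups share the mixed culture of whole spleen cells, so B cells, myeloid cells and other spleen cells were present until the sort. The labels number the arrays of a group 1 to 3 without saying whether a number marks a mouse, a culture or a day, so a p-value here reflects the spread among these samples alone, and that spread may be technical.

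CD4 T cells are the helper arm of T cell immunity. They recognise peptides on MHC class II molecules with the help of the co-receptor CD4, instruct B cells and macrophages through CD40 ligand and cytokines, and include the regulatory T cells that depend on the transcription factor Foxp3. CD8 T cells recognise peptides on MHC class I molecules with the help of the CD8 alpha and beta chains and can kill target cells with perforin and granzymes. The choice between the lineages is made in the thymus, where ThPOK, the product of Zbtb7b, holds the CD4 fate and Runx3 holds the CD8 fate and silences Cd4. Linoleic acid is taken up by T cells, bound to coenzyme A and burned in mitochondria or stored as triglyceride and phospholipid.

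Values are log2 intensities as deposited, 1 per gene and array, and a difference is the CD8 mean minus the CD4 mean on that scale, so a difference of 1 is a 2-fold difference. Many differences are given with a standard error (SE) from limma, n = 3 arrays per group. Its spread is estimated from all 12 arrays in 4 groups and moderated across genes. Adjusted p-values are over all 14323 genes tested, the threshold being 0.05. Olfactory and vomeronasal receptor genes, which have no known role in T cells, gave a gauge of background: 95% of these 1394 genes had a mean below log2 5.11. In sorted bulk RNA, fewer cells of a type and less RNA per cell cannot be told apart.

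The T cell receptor genes Cd3d, Cd3e and Cd3g did not differ past the threshold between the sorts. Cd3e, the epsilon chain of the T cell receptor complex, was at 11.68, 11.67 and 11 in CD8 arrays 1, 2 and 3 and at 11.62, 11.55 and 11.25 in CD4 arrays 1, 2 and 3, and the values of the cell types overlapped. Correlations between the 6 arrays ran from 0.959 to 0.984. CD8 array 3 stood apart, with the lowest Cd3e, the highest median of all probe sets (4.80) and the brightest olfactory and vomeronasal genes (mean 3.46, against 3.07 to 3.41 in the other 5 arrays of this culture). B cell genes were present in every sort. The mean of 14 B cell markers was 6.65, 7.92 and 7.94 in CD8 arrays 1, 2 and 3 and 7.04, 8.38 and 8.38 in CD4 arrays 1, 2 and 3, so that arrays numbered 1 held less of it than those numbered 2 and 3 in both cell types. All 14 markers lay lower in CD8, with a median difference of -0.47, 0 of them passed the threshold, and with the replicate number as a block 8 did. Without CD8 array 1 alone their median difference was 0.01, and without CD4 array 1 alone it was -0.92. Without all arrays numbered 1 it was -0.47. Means of the 14 tested myeloid markers ran from 5.37 to 6.21 in CD8 and from 5.47 to 6.20 in CD4 arrays, those of 9 dendritic cell markers from 5.34 to 5.59 and from 5.35 to 5.56, and 0 members of either list passed. Among 7 NK cell markers 1 passed, Eomes, which CD8 T cells also use, and the NK cell receptor gene Ncr1 was at 4.30, 5.83 and 5.90 in CD8 and 4.94, 6.08 and 6.01 in CD4 arrays. Of 4 gamma-delta and NKT markers 0 passed and of 2 erythroid markers 0 passed, while the integrin chain Itgb3 passed among 3 platelet markers and is described with the integrins.

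CD8 and CD4 T cells differed in 291 of the 14323 genes (2.03%), of which 103 (0.719%) were higher and 188 (1.31%) were lower in CD8 T cells. Of these, 114 differed by more than 2-fold, 50 higher and 64 lower, and the median difference was 0.99 among the higher and -0.88 among the lower genes. Over all genes tested the median difference was -0.02, with 45.9% of genes above 0 and 54.1% below. In each of the 291 genes, picked by p from these same arrays, the CD8 and CD4 arrays did not overlap. That alone makes all 3 same-numbered pairs differ the same way. Arrays did not overlap in 15.3% of all genes tested (6.31% with CD8 above, 8.98% with CD8 below). The lower side lay at background in part: 42 of the 188 genes lower in CD8 had a CD8 mean below the gauge, 16 of the 103 higher genes had a CD4 mean below it, and 5 genes had both.

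The replicate numbers were taken to pair these arrays because of correlations in these same data, as the labels do not say what a number marks. In control culture the pairing was less clear. With the number as a block over all 12 arrays 798 genes passed (5.57%). Of these, 255 were higher (1.78%) and 543 lower (3.79%), and all 291 were among them. Without CD8 array 3, 237 genes passed, 113 higher and 124 lower, so that the share of higher genes was 47.7% instead of 35.4%. Without CD8 array 1, 322 passed, 85 higher and 237 lower, a share of 26.4%. Leaving out any of the 6 arrays gave a share of 26.4% to 47.7%. The count was moved by more than 1.5 times by 2 CD4 arrays, with 179 genes passing without CD4 array 1 and 150 without CD4 array 2. With the mean of the B cell markers as a covariate, an alternative chosen after the data were seen, 704 genes passed, again with all 291 among them.

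**Figure D1:**
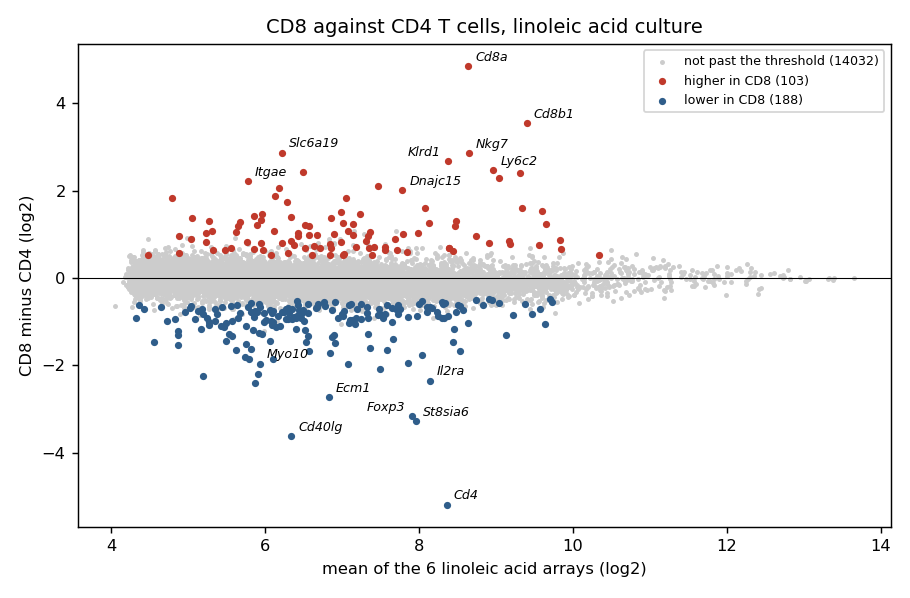
Difference between CD8 and CD4 T cells in linoleic acid culture (vertical axis, log2) against the mean of the 6 arrays (horizontal axis, log2 intensity), 1 point per gene tested. The 103 genes higher in CD8 T cells are red, the 188 lower are blue and the genes not past the threshold are grey, and Cd8a and Cd4 mark the ends of the spread.

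The co-receptor genes showed the largest differences of all genes tested in either direction. The cells were sorted as CD8 and CD4 T cells, so the direction of these differences was fixed by the sort. Cd8a (probe set 17459482), the alpha chain of the CD8 co-receptor, read 11.12, 11.08 and 10.98 in CD8 arrays 1, 2 and 3 and 5.01, 6.78 and 6.82 in CD4 arrays 1, 2 and 3, a difference of 4.86 ± 0.38 (SE), adjusted p = 3.92e-06 or 29-fold. Cd8b1 (probe set 17459474), the beta chain, read 11.21, 11.09 and 11.20 against 7.05, 7.88 and 7.94, a difference of 3.55 ± 0.19 (SE), adjusted p = 1.83e-07. Cd4 (probe set 17470960) read 5.12, 6.15 and 6.01 in the CD8 and 11.13, 10.90 and 10.82 in the CD4 arrays, a difference of -5.19 ± 0.29 (SE), adjusted p = 2.71e-07 or 36.5-fold to the other side. The level of the opposite co-receptor varied with the array number: Cd8a in the CD4 sorts and Cd4 in the CD8 sorts were lowest on the arrays numbered 1. The B cell, myeloid, dendritic and NK cell marker means were lowest there too. What part other cells had in these levels was not tested.

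The regulators of the lineage choice differed less than the co-receptors they control. Zbtb7b (probe set 17407069), which encodes the CD4 lineage factor ThPOK, read 5.13, 5.01 and 5.42 in CD8 and 6.44, 6.03 and 5.84 in CD4 arrays, a difference of -0.92 ± 0.20 (SE), adjusted p = 0.0269. Its call was lost without CD8 array 1 (0.0606), CD8 array 2 (0.122), CD4 array 1 (0.13) or CD4 array 2 (0.085). Runx3 (probe set 17419840), the CD8 lineage factor, read 7.87, 7.45 and 6.92 against 6.65, 6.47 and 6.43. The Runx3 arrays did not overlap, yet CD8 values spread over nearly a whole log2 unit, and the difference of 0.90 ± 0.24 missed the threshold (adjusted p = 0.0829), which it passed with the replicate block (adjusted p = 0.000485). Runx1, a relative of Runx3 that acts in both lineages, lay on the CD4 side, at 7.37, 7.25 and 6.80 against 8.29, 8.31 and 7.82 (-1.001 ± 0.18 (SE), adjusted p = 0.00927), and its call was lost without CD4 array 2 (0.0606). Among the 14 tested members of the co-receptor and lineage list 2 were higher in CD8, Cd8a and Cd8b1, and 3 lower, Cd4, Zbtb7b and Runx1. Of all genes tested 0.719% were higher and 1.31% lower, but the calls of Cd8a, Cd8b1 and Cd4 follow from the sort. The list median was -0.33. Without CD4 array 2 the count was 2 higher and 1 lower. With the block it was 3 higher and 7 lower, the additional genes on the CD4 side being the thymic regulators Satb1 (-0.61), Bcl11b (-0.69), Gata3 (-0.50) and Tox (-0.41), with adjusted p = 0.00344, 0.00507, 0.0203 and 0.0339 there and 0.0897, 0.206, 0.216 and 0.337 without the block.

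**Figure D2:**
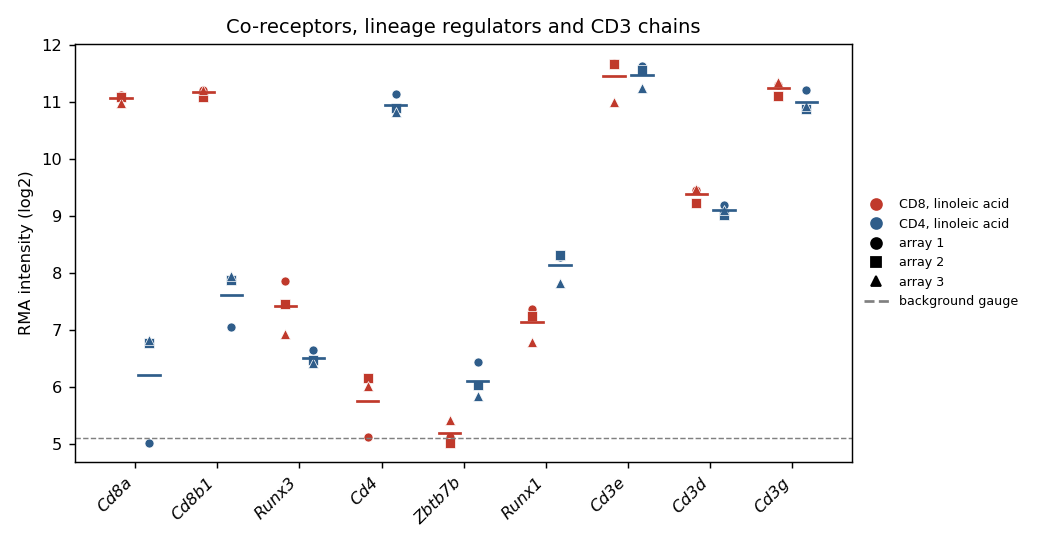
Log2 intensity (vertical axis) of co-receptor and lineage genes on each linoleic acid array, CD8 in red and CD4 in blue, with a marker shape for each array number, a bar for the group mean and a dashed line for the background gauge at 5.11. Cd8a and Cd4 are separated by several log2 units, while Zbtb7b, Runx3 and Runx1 are separated by about 1.

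Runx proteins bind DNA at the core TGTGGT, so promoters that hold it are shown for 2 lineage genes and 1 granule gene, with the core in capitals, as TGTGGT or, where it lies on the other strand, as ACCACA. The stretches are the 250 bases before a RefSeq transcription start (mouse build GRCm38.p6), 5′ to 3′ on the strand of the gene. For Runx3 it is the promoter at chr4:135120395-135120644 on the plus strand, with 2 cores. For Zbtb7b it is chr3:89387672-89387921 on the minus strand, with 1 core. For Nkg7, the cytotoxic granule gene with the largest difference of its list, it is chr7:43436888-43437137 on the plus strand, with 1 core.
Runx3: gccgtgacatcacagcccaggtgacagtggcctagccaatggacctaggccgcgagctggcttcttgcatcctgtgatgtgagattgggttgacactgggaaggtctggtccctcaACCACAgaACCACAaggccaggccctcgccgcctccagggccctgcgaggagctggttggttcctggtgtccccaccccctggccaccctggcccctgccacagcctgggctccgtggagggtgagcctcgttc
Zbtb7b: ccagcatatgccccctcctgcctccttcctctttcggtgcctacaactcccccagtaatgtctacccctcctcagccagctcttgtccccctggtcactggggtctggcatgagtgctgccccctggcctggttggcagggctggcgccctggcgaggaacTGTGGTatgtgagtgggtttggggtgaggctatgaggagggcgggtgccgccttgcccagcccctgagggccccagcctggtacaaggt
Nkg7: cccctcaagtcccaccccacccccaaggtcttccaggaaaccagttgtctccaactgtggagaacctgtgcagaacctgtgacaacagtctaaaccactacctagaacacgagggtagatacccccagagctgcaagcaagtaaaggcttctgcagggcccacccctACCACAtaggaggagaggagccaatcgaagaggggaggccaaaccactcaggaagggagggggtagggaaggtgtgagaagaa
These 3 stretches were chosen because they hold the core. The second RefSeq promoter of Runx3 and that of Zbtb7b hold no core in the 250 bases, nor do the 1 promoter of Cd8a, the 2 of Runx1 and the 2 of Foxp3. In windows of 300 bases, which run from 250 before to 50 after the start, the core was found in 16.8% of all 32851 RefSeq promoters of the table, in 13.3% of 13952 promoters of the genes tested, in 27.5% of 91 promoters of genes higher in CD8 and in 16.3% of 196 promoters of genes lower in CD8. In this longer window the Runx1 promoter at chr16:92826075-92826324 holds the core as well. A promoter was matched by symbol for 75 of the 103 higher and 142 of the 188 lower genes. The base composition of these sets differed, with a median GC content of 59.7% for the genes tested, 55.3% for the higher and 59.7% for the lower genes. These shares describe letters in a window and were not tested.

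Cytotoxic genes that passed the threshold were all higher in CD8 T cells. Of 21 tested genes of cytotoxic granules and killer cytokines 6 were higher in CD8 T cells and 0 were lower, beside 0.719% of all genes that were higher, and the list median was 0.29. Nkg7, a granule membrane protein needed for degranulation, read 9.92, 10.22 and 10.07 in CD8 and 6.62, 7.64 and 7.40 in CD4 arrays, a difference of 2.85 ± 0.21 (SE), adjusted p = 2.74e-06 or 7.23-fold. The CD8 arrays lay close together while CD4 array 1 was below its group mates. That array had the lowest B cell, myeloid, dendritic and NK cell marker means of the CD4 arrays. What part other cells had in the Nkg7 values was not tested. The chemokine Ccl5, which draws in T cells and monocytes, read 10.72, 10.48 and 10.34 against 7.78, 8.33 and 8.18, a difference of 2.42 ± 0.15 (SE), adjusted p = 6.2e-07. Ctsw, a cysteine protease of cytotoxic lymphocytes, read 10.15, 10.22 and 10.16 against 7.98, 7.86 and 7.85, a difference of 2.28 ± 0.16 (SE), adjusted p = 2.04e-06. Its groups were tight and more than 2 log2 units apart. Crtam, an adhesion receptor of activated CD8 and NK cells, read 7.48, 6.99 and 6.72 against 5.17, 5.35 and 5.01 (1.89, adjusted p = 1.34e-05), and Cst7, an inhibitor of the proteases that mature granzymes, read 7.71, 7.78 and 7.72 against 6.23, 6.13 and 6.31 (1.51, adjusted p = 4.53e-06). Prf1, the pore-forming perforin, differed by 0.65 ± 0.14 (adjusted p = 0.0227). The perforin call was lost without CD8 array 1 (0.0588), CD8 array 2 (0.113), CD4 array 1 (0.0852), CD4 array 2 (0.0532) or CD4 array 3 (0.0946).

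Gzmb, Gzma and Gzmk did not pass in the fit of all 12 arrays. Gzmb, the main apoptosis-inducing granzyme, read 7.26, 8.11 and 8.20 in CD8 and 6.10, 8.05 and 7.96 in CD4 arrays, and the groups overlapped (difference 0.49 ± 0.58, adjusted p = 0.805). Both arrays numbered 1 were the lowest of their group. Gzma was at 4.86, 5.53 and 5.82 against 4.56, 5.70 and 5.98, Gzmk at 6.01, 5.61 and 5.83 against 6.38, 5.74 and 5.56, and Ifng, the effector cytokine interferon gamma, at 4.84, 4.91 and 5.52 against 4.75, 5.25 and 5.01, all overlapping and with adjusted p = 0.997, 0.931 and 0.934. These genes were named after their values were seen. The chemokine Xcl1, which attracts cross-presenting dendritic cells, differed by 1.02 ± 0.36 and passed with the block alone (adjusted p = 0.248, and 0.00046 with the block). With the B cell marker covariate the count for the cytotoxic list was 10 higher and 1 lower, and Gzmb was among the higher genes there (difference 1.01, adjusted p = 0.00442), while over the other alternatives its adjusted p was 0.128 to 0.972.

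Of 10 tested receptors that T cells share with NK cells, 1 was higher in CD8, 1 was lower and 8 did not pass, where 0.719% and 1.31% of all genes tested were higher and lower. Klrd1, the CD94 chain that pairs with NKG2 receptors, read 9.98, 9.42 and 9.73 in CD8 and 7.21, 6.89 and 6.99 in CD4 arrays, a difference of 2.68 ± 0.21 (SE), adjusted p = 3.99e-06 or 6.41-fold. Its partner Klrc1, which encodes NKG2A, read 6.42, 5.84 and 5.92 against 4.89, 5.01 and 5.52 without overlap and passed with the block (adjusted p = 0.00933) but not without it (0.92, adjusted p = 0.0732). Klrg1, a receptor of late effector and of some regulatory T cells, lay on the CD4 side at 4.47, 4.68 and 4.72 against 5.55, 5.60 and 5.51 (-0.93 ± 0.16 (SE), adjusted p = 0.00702). The activating receptor Klrk1 (NKG2D) was at 5.21, 5.02 and 4.78 in CD8 and 4.604, 5.09 and 4.97 in CD4 arrays, around the background gauge in both, and 6 of the 10 genes had a mean below that gauge.

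Helper genes that passed were all lower in CD8 T cells. Of 15 tested, 0 were higher and 6 were lower in CD8 T cells, beside 1.31% of all genes, with a list median of -0.55. Cd40lg, the ligand through which helper cells license B cells and dendritic cells, read 4.64, 4.86 and 4.08 in CD8 and 8.42, 8.04 and 7.98 in CD4 arrays, a difference of -3.62 ± 0.22 (SE), adjusted p = 4.98e-07. All CD8 values lay below the background gauge. Maf, a transcription factor of follicular helper and interleukin-producing cells, read 3.98, 4.49 and 4.16 against 5.77, 5.60 and 5.19 (-1.31 ± 0.19 (SE), adjusted p = 0.00142, and -0.88 as the mean of its 2 probe sets, adjusted p = 0.0114). The CD8 values of Maf all lay below the gauge as well. Icos, the costimulatory receptor of follicular helper cells, read 7.88, 7.67 and 7.96 against 8.68, 8.54 and 8.62 (-0.78 ± 0.12 (SE), adjusted p = 0.00209). Bcl6, the master factor of follicular helper cells, differed by -1.02, adjusted p = 0.0137, the inhibitory ligand Cd200 by -1.07, adjusted p = 0.0137, and Ccr4, a chemokine receptor of type 2 helper and regulatory cells, by -0.94, adjusted p = 0.0334. These 3 calls depended on single arrays. Bcl6 was lost without CD4 array 1 (0.0667) or CD4 array 2 (0.0688), Cd200 without CD4 array 2 (0.0531) or CD4 array 3 (0.0632), and Ccr4 without CD8 array 1 (0.0883), CD8 array 2 (0.0927), CD4 array 1 (0.14) or CD4 array 2 (0.172). Without CD4 array 2 the list had 3 members lower.

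Regulatory T cell genes made up the fullest block on the CD4 side. Of 21 tested, 15 were lower in CD8, 1 was higher and 5 did not pass, beside 1.31% of all genes lower and 0.719% higher, with a list median of -0.92. Foxp3, the defining transcription factor, read 6.05, 6.51 and 6.43 in CD8 and 9.64, 9.63 and 9.20 in CD4 arrays, a difference of -3.16 ± 0.16 (SE), adjusted p = 1.33e-07 or 8.93-fold. Its CD8 values were above the background gauge on every array. Il2ra, the high-affinity chain of the interleukin-2 receptor, read 6.92, 7.005 and 6.97 against 9.15, 9.59 and 9.19 (-2.35 ± 0.16 (SE), adjusted p = 9.56e-07). Lrrc32, which holds latent TGF-beta on the regulatory cell surface, read 4.72, 4.68 and 4.59 against 7.23, 7.27 and 6.70 (-2.40 ± 0.19 (SE), adjusted p = 3.99e-06), with all CD8 values below the gauge. Tnfrsf4, the costimulatory receptor OX40, read 6.05, 6.14 and 6.09 against 7.79, 8.11 and 8.25 (-1.96 ± 0.15 (SE), adjusted p = 4.44e-06). Socs2, an inhibitor of cytokine signalling, read 3.99, 4.45 and 3.77 against 6.13, 6.37 and 6.41 (-2.23 ± 0.19 (SE), adjusted p = 9.1e-06). Its CD8 values lay far under the gauge, and as the mean of its 2 probe sets the difference was -1.28 (adjusted p = 9.26e-05).

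The remaining regulatory genes that passed were named after their values were seen. Izumo1r, the folate receptor 4 of regulatory cells, differed by -1.67, adjusted p = 2.35e-05, the orphan receptor Gpr83 by -1.44, adjusted p = 1.21e-05, the semaphorin receptor Nrp1 by -1.54, adjusted p = 0.00248, and Tnfrsf9, the costimulatory receptor 4-1BB, by -1.75, adjusted p = 0.00531. These 4 calls held without any 1 array, and the mean of Nrp1 over all arrays lay below the background gauge. Smaller differences were found for the Ikaros factors Ikzf2 (-0.81) and Ikzf4 (-0.78), the inhibitory receptor Ctla4 (-0.72), Tnfrsf18, the receptor GITR (-0.62), and the enkephalin precursor Penk (-0.92), with adjusted p = 0.0102, 0.00814, 0.00884, 0.034 and 0.0263. The mean of Penk over all arrays (4.36) lay below the background gauge. Ikzf2 was lost without CD4 array 2 (0.0649), Ikzf4 without CD4 array 2 (0.0577), Ctla4 without CD8 array 2 (0.0508) or CD4 array 2 (0.0532), Penk without CD8 array 1 (0.0741), CD8 array 2 (0.0671), CD4 array 2 (0.15) or CD4 array 3 (0.112), and Tnfrsf18 without any of the 6 arrays (adjusted p = 0.0541 to 0.159). The inhibitory receptor Tigit is in this list too and is given with the costimulatory genes. The member that was higher in CD8 was Itgae, the CD103 integrin chain that binds E-cadherin on epithelia, at 7.36, 6.77 and 6.51 against 4.64, 4.61 and 4.74 (2.22 ± 0.18 (SE), adjusted p = 4.53e-06); all CD4 values lay below the gauge. The ectoenzymes that make adenosine did not pass, Nt5e (CD73) at 0.40, adjusted p = 0.419 and Entpd1 (CD39) at -0.68, adjusted p = 0.123, which the block took to 0.0424. Of the tested members 10 also stand in the costimulatory, cytokine receptor, chemokine receptor, integrin, SOCS or transcription factor lists, so the lists are not separate evidence.

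**Figure D3:**
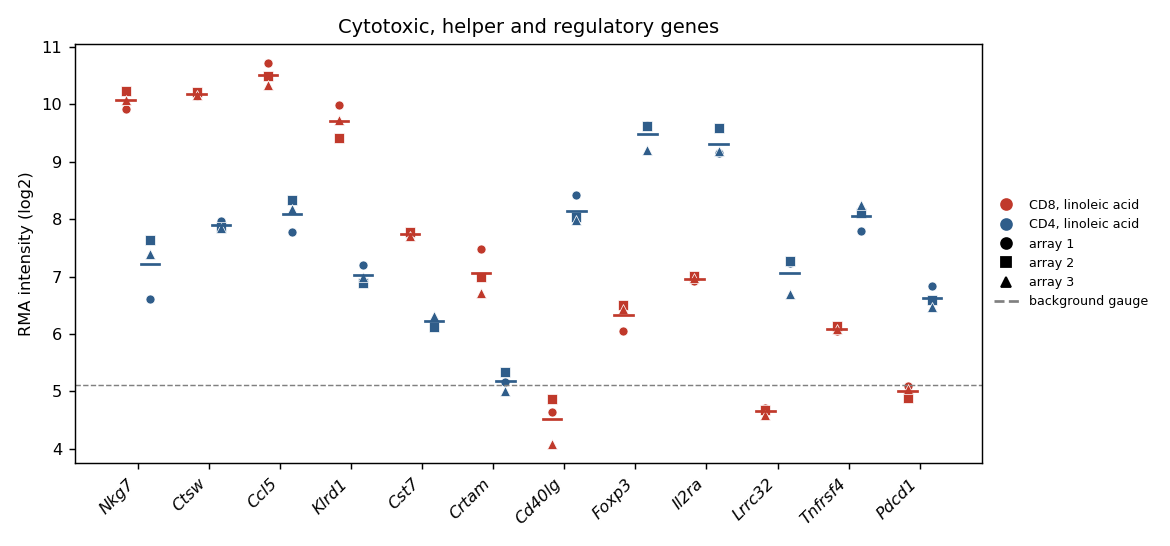
Log2 intensity (vertical axis) of cytotoxic, helper and regulatory genes on each linoleic acid array, CD8 in red and CD4 in blue, with a marker shape for each array number, a bar for the group mean and a dashed line for the background gauge at 5.11. Nkg7 to Crtam lie higher in CD8 and Cd40lg to Pdcd1 lie higher in CD4, with no overlap for any of these genes.

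Most costimulatory and inhibitory genes that passed were lower in CD8 T cells. Of 33 tested, 14 were lower and 2 higher in CD8, beside 1.31% and 0.719% of all genes, with a list median of -0.20. Cd226 and Tigit, which compete for the same ligands and respectively activate and restrain the T cell, went opposite ways. Cd226 read 8.96, 8.73 and 8.94 in CD8 and 7.55, 7.16 and 7.09 in CD4 arrays (1.61 ± 0.16 (SE), adjusted p = 4.5e-05), and Tigit read 3.86, 4.10 and 3.52 against 5.73, 5.03 and 5.11 (-1.46 ± 0.22 (SE), adjusted p = 0.00178). All CD8 values of Tigit and its mean over all arrays (4.55) lay below the background gauge. Pdcd1, the inhibitory receptor PD-1, read 5.09, 4.89 and 5.05 against 6.84, 6.58 and 6.47 (-1.62 ± 0.15 (SE), adjusted p = 2.46e-05), with every CD8 value under the background gauge. The second gene higher in CD8 was Crtam, given above. Named after their values were seen, Cd200r1, the receptor of the inhibitory ligand CD200, differed by -1.16, adjusted p = 0.00295, the adhesion receptor Slamf1 by -0.82, adjusted p = 0.0109, the death-domain receptor Tnfrsf25 by -0.63, adjusted p = 0.011, Tnfrsf8 (CD30) by -0.70, adjusted p = 0.0236 and Cd28, the principal costimulatory receptor, by -0.68, adjusted p = 0.0425. Slamf1 was lost without CD4 array 2 (0.0707), Tnfrsf25 without CD4 array 1 (0.0578), Tnfrsf8 without CD8 array 2 (0.113), CD4 array 1 (0.0778), CD4 array 2 (0.11) or CD4 array 3 (0.0703) and Cd28 without CD8 array 2 (0.167), CD8 array 3 (0.105), CD4 array 1 (0.19) or CD4 array 3 (0.0957). Values of the checkpoint genes Lag3 and Cd274 overlapped, with Lag3 at 5.15, 4.94 and 5.13 against 5.21, 5.20 and 5.13 near background and Cd274, the ligand PD-L1, at 8.99, 9.32 and 9.26 against 8.90, 9.34 and 9.28. With the block 3 genes of the list were higher and 15 lower, beside 1.78% and 3.79% of all genes.

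Cytokine receptor chains gave 2 genes on each side among 27 tested, beside 0.719% of all genes higher and 1.31% lower, with a median of -0.07. Eng (endoglin), a co-receptor of the TGF-beta family, read 7.84, 7.22 and 6.56 in CD8 and 5.07, 4.99 and 5.36 in CD4 arrays (2.07 ± 0.25 (SE), adjusted p = 0.000325), and Tgfbr3 (betaglycan), a co-receptor of the same family, lay on the other side at 6.47, 5.98 and 5.32 against 7.28, 7.12 and 6.94 (-1.19 ± 0.24 (SE), adjusted p = 0.0169). For both genes the CD8 values were spread over more than 1 log2 unit, with array 1 highest and array 3 lowest. Il10rb, the shared chain of the interleukin-10 receptor family, was higher by 0.70 ± 0.13 (SE), adjusted p = 0.0139. The Tgfbr3 call was lost without CD8 array 2 (0.0548), CD4 array 1 (0.0763) or CD4 array 2 (0.0733) and the Il10rb call without CD4 array 2 (0.069) or CD4 array 3 (0.0608), and the list had 1 gene on each side without CD4 array 2. Receptors of the homeostatic cytokines lay close together, with Il7r at 11.89, 11.62 and 11.70 against 12.01, 11.68 and 11.74 (-0.07 ± 0.15) and Il2rb, the beta chain for interleukins 2 and 15, at 9.77, 9.97 and 9.47 against 9.39, 9.69 and 9.51 (0.21 ± 0.15). Of 8 SOCS family genes, which curb cytokine signalling, Socs2 and Cish were lower and 6 did not pass. Cish, an early target of STAT5, read 5.25, 5.502 and 5.07 against 6.15, 6.09 and 5.94 (-0.79 ± 0.13 (SE), adjusted p = 0.00554), but its 2 probe sets disagreed, and as their mean it differed by -0.38 (adjusted p = 0.163).

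Ccr9 and Cxcr6 were the homing receptors higher in CD8 T cells. Ccr9, the chemokine receptor for the small intestine, read 6.82, 7.12 and 7.50 in CD8 and 5.12, 5.31 and 5.81 in CD4 arrays (1.74 ± 0.22 (SE), adjusted p = 0.00049). Cxcr6, a receptor of liver-homing and tissue-resident T cells, read 8.08, 7.16 and 7.67 against 6.62, 6.38 and 6.11 (1.26 ± 0.24 (SE), adjusted p = 0.0107), a call that was lost without CD4 array 3 (0.0525). Among the 16 chemokine and lipid homing receptors tested 2 were higher and 1 was lower, beside 0.719% and 1.31% of all genes tested, the latter being Ccr4, given above. With the block Ccr6, a receptor of interleukin-17 producing and regulatory cells (-0.58), and the oxysterol receptor Gpr183 (-0.50) were lower as well (adjusted p = 0.0027 and 0.0411, against 0.104 and 0.112 without it). The lymph node receptor Ccr7 was at 10.37, 10.53 and 10.50 against 10.45, 10.38 and 10.46 (0.04 ± 0.11), a difference within the spread of the arrays.

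Integrin chains gave Itgae on the CD8 side and 3 genes on the CD4 side among 19 tested, beside 0.719% and 1.31% of all genes tested. Itgb3, the beta3 chain of the vitronectin receptor, read 6.43, 6.44 and 5.87 in CD8 and 7.62, 7.69 and 7.33 in CD4 arrays (-1.30 ± 0.16 (SE), adjusted p = 0.000396). Its platelet partner chain Itga2b was at 5.55, 5.35 and 5.43 against 5.29, 5.23 and 5.06 (0.25, adjusted p = 0.407) and did not pass. Itga6, a laminin receptor chain, read 8.12, 7.998 and 7.70 against 8.92, 8.83 and 8.70 (-0.88 ± 0.14 (SE), adjusted p = 0.00275), and Itgb8, which activates latent TGF-beta, read 4.64, 4.75 and 4.76 against 5.18, 5.38 and 5.51 (-0.64, adjusted p = 0.0379), a call lost without CD8 array 1 (0.0848), CD8 array 2 (0.106), CD8 array 3 (0.0765), CD4 array 2 (0.158) or CD4 array 3 (0.165). Itgb7, the partner of CD103 and of Itga4 in gut homing, was not past the threshold (-0.30 ± 0.21), nor was Itgal, the alpha chain of LFA-1 (-0.16 ± 0.14).

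Of 30 transcription factors of effector subsets 1 was higher and 4 were lower in CD8, beside 0.719% and 1.31% of all genes tested, with a median of -0.33. Eomes, which drives memory and cytotoxic genes in CD8 T cells, read 6.39, 7.004 and 6.40 in CD8 and 5.06, 5.46 and 5.31 in CD4 arrays, a difference of 1.32 ± 0.19 (SE), adjusted p = 0.00178. Its relative Tbx21, which encodes T-bet, was at 5.86, 5.84 and 5.51 against 5.37, 5.52 and 5.44 (0.29, adjusted p = 0.397). The 4 lower genes were Maf, Bcl6 and Ikzf2, given above, and Stat5b, which carries interleukin-2 and interleukin-7 signals, at 8.38, 8.12 and 7.79 against 8.88, 9.06 and 8.67 (-0.77 ± 0.15 (SE), adjusted p = 0.0136). Stat5b was lost without CD4 array 1 (0.0549) or CD4 array 2 (0.0898), and the list had 2 lower genes without CD4 array 1 and 1 without CD4 array 2. With the block 12 were lower, among them Prdm1, which encodes Blimp-1 (-0.46, adjusted p = 0.0174 and 0.0544 without the block), Rora (-0.49, 0.0208 and 0.0919), Bach2 (-0.53, 0.0167 and 0.153) and Irf4 (-0.70, 0.00772 and 0.592).

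Among 18 naive and quiescence genes 2 were higher and 1 lower in CD8, beside 0.719% and 1.31% of all genes tested, with a median of -0.23. Ly6c2, a surface antigen of memory-like CD8 T cells, read 9.75, 10.28 and 10.57 in CD8 and 7.28, 7.91 and 7.996 in CD4 arrays (2.47 ± 0.22 (SE), adjusted p = 1.7e-05). Dapl1, found in naive and memory precursor CD8 T cells, differed by 1.31 ± 0.26 (SE), adjusted p = 0.0171, and the antiproliferative Tob1 by -1.06 ± 0.24 (SE), adjusted p = 0.0351. Neither of the latter held without single arrays: Dapl1 was lost without CD8 array 1 (0.0518), CD8 array 3 (0.0668), CD4 array 2 (0.11) or CD4 array 3 (0.0782) and Tob1 without CD8 array 2 (0.112), CD8 array 3 (0.111), CD4 array 1 (0.155) or CD4 array 2 (0.111), so that without CD8 array 3 or CD4 array 2 only Ly6c2 passed in this list. With the block 3 were lower, Satb1 and Bach2 being the additional genes. Of 23 early response genes of the NR4A, EGR and AP-1 families and their relatives 0 passed in limma, beside 2.03% of all genes, and 4 had an unadjusted p under 0.05, with Dusp4 lower with the block (-0.51, adjusted p = 0.028, and 0.233 without it). The growth factor target Myc was at 8.05, 8.26 and 8.04 against 7.45, 7.84 and 7.83 (0.41, adjusted p = 0.273), without overlap.

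T cell receptor signalling genes moved to both sides. Of 30 tested, 3 were higher and 2 lower in CD8, beside 0.719% and 1.31% of all genes tested, with a median of -0.16. Trat1, an adaptor that stabilises the receptor complex, read 6.98, 6.87 and 6.78 in CD8 and 9.21, 8.54 and 8.72 in CD4 arrays (-1.94 ± 0.16 (SE), adjusted p = 7.23e-06). Sla2, an adaptor that dampens receptor signals, was higher in CD8 at 9.80, 9.59 and 9.40 against 8.92, 8.76 and 8.55 (0.85 ± 0.14 (SE), adjusted p = 0.00367). The glycoprotein Thy1 differed by 0.87 ± 0.18 (SE), adjusted p = 0.0183, the phosphatase Ptpn22, which restrains proximal kinases, by 0.54 ± 0.11 (SE), adjusted p = 0.024, and Cd5, a negative regulator set by the strength of self-recognition, by -0.82 ± 0.20 (SE), adjusted p = 0.0456. These 3 calls were lost without single arrays, Thy1 without CD8 array 1 (0.0543), CD8 array 2 (0.0673), CD4 array 2 (0.112) or CD4 array 3 (0.09), Ptpn22 without CD8 array 1 (0.058), CD8 array 2 (0.0799), CD4 array 2 (0.142) or CD4 array 3 (0.0937) and Cd5 without CD8 array 2 (0.0691), CD8 array 3 (0.164), CD4 array 1 (0.196) or CD4 array 2 (0.172). The list had 1 higher and 2 lower genes without CD8 array 1 or CD4 array 3, and 1 and 1 without CD8 array 2 or CD4 array 2.

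Interferon-stimulated genes that passed were all lower in CD8. Of 26 tested, 4 were lower and 0 higher, beside 1.31% and 0.719% of all genes, with a median of -0.15. Ifih1, the RNA sensor MDA5, read 6.84, 7.04 and 6.78 in CD8 and 7.71, 7.94 and 7.72 in CD4 arrays (-0.90 ± 0.12 (SE), adjusted p = 0.00058), a call that no single array ended. Stat2, which carries the type I interferon signal, read 7.74, 8.03 and 7.36 against 8.24, 8.70 and 8.54 (-0.78, adjusted p = 0.0235), Oasl2, of the antiviral oligoadenylate synthetase family, read 7.63, 8.38 and 8.35 against 8.71, 9.31 and 9.40 (-1.02, adjusted p = 0.0253), and Ifit2 differed by -0.81, adjusted p = 0.0242. Stat2 was lost without CD8 array 3 (0.0723), CD4 array 2 (0.143) or CD4 array 3 (0.0829), Oasl2 without CD8 array 1 (0.0613), CD4 array 2 (0.138) or CD4 array 3 (0.113) and Ifit2 without CD8 array 2 (0.113), CD8 array 3 (0.0732), CD4 array 1 (0.118) or CD4 array 2 (0.0763). The count was 2 without CD8 array 3 or CD4 array 3 and to 1 without CD4 array 2, and it was 7 with the block, which added Oas2 (-1.06, adjusted p = 4.32e-05, and 0.148 without it), Parp14 (-0.51, 0.0138 and 0.0747) and Zbp1 (-0.42, 0.0403 and 0.159). Oas2 and Oasl2 were lowest on the arrays numbered 1 in both cell types. The B cell, myeloid, dendritic and NK cell marker means were lowest there too, and what part other cells had in these levels was not tested.

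Angptl4, Elovl7 and Lipa were the fatty acid genes past the threshold between the cell types. Of 23 tested genes of fatty acid oxidation and its PPAR control 1 was higher in CD8 and 0 were lower, beside 2.03% of all genes, with a median of 0.07. That gene was Angptl4, an inhibitor of lipoprotein lipase and a PPAR target, at 4.81, 4.61 and 4.78 against 4.09, 4.18 and 4.37 (0.52, adjusted p = 0.0349). All 6 values lay below the background gauge, and the call was lost without CD8 array 1 (0.0828), CD8 array 2 (0.0508), CD8 array 3 (0.0899), CD4 array 1 (0.162) or CD4 array 2 (0.158). Cpt1a, the enzyme that admits long-chain fatty acids to mitochondria, read 8.19, 7.80 and 7.17 in CD8 and 8.34, 7.96 and 7.71 in CD4 arrays, and its difference of -0.29 ± 0.23 was within the spread of the arrays (adjusted p = 0.699). In fatty acid uptake, activation, elongation and storage, 1 of 17 genes was higher and 1 lower, beside 0.719% and 1.31% of all genes tested, with a median of -0.09. Elovl7, an elongase of long-chain fatty acids, read 5.82, 5.27 and 5.02 against 4.36, 4.44 and 4.40 (0.97 ± 0.17 (SE), adjusted p = 0.0082), with all CD4 values below the gauge. Lipa, the lysosomal acid lipase, read 9.47, 9.20 and 8.98 against 10.15, 9.85 and 9.78 (-0.71 ± 0.17 (SE), adjusted p = 0.0407) and was lost without CD8 array 2 (0.128), CD8 array 3 (0.149), CD4 array 1 (0.182), CD4 array 2 (0.118) or CD4 array 3 (0.0645). With the block Dgat1, which forms triglyceride (-0.47, adjusted p = 0.0331, and 0.314 without it), and the desaturase Scd1 (-0.63, 0.00338 and 0.758) were lower as well.

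Most sterol genes had differences below 0, and 1 passed. Of 21 tested genes of sterol and fatty acid synthesis and their regulation 18 lay below 0, beside 54.1% of all genes, with a median of -0.31. Cyp51, the lanosterol demethylase, read 5.77, 5.41 and 5.27 in CD8 and 6.34, 6.30 and 6.07 in CD4 arrays (-0.76 ± 0.14 (SE), adjusted p = 0.0123), a call lost without CD8 array 2 (0.0606), CD4 array 1 (0.0633) or CD4 array 2 (0.0713). With the block Fdft1 (-0.43), Sqle (-0.50) and Sc5d (-0.49), enzymes of the squalene and late cholesterol steps, passed too (adjusted p = 0.0478, 0.0429 and 0.0352, against 0.119, 0.133 and 0.104 without it). Without CD8 array 3 the median was -0.12.

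In 6 other metabolic and housekeeping groups 0 genes passed in limma, which in lists of this size is near the 2.03% of all genes. These were 32 subunits of respiratory complex I (median 0.09), 17 genes of glycolysis (-0.05), 18 of redox defence (-0.08), 18 of survival and apoptosis (-0.04), 22 of the cell cycle (-0.02) and 8 GIMAP GTPases of lymphocyte survival (-0.32), with 1, 5, 2, 4, 2 and 6 genes at an unadjusted p under 0.05. Of the complex I genes 26 lay above 0, beside 45.9% of all genes, with Ndufa6 at 0.31, adjusted p = 0.404 and Ndufa10 at 0.28, adjusted p = 0.425. Mcl1, a survival factor of lymphocytes, was at 10.07, 10.10 and 9.96 against 10.48, 10.42 and 10.44 (-0.40, adjusted p = 0.161), and Fth1, the iron-storing ferritin heavy chain, at 10.69, 10.63 and 10.29 against 10.98, 10.95 and 10.84 (-0.39, adjusted p = 0.193), both without overlap. With the block the lactate carrier Slc16a1 (0.69), the survival factor Bcl2 (0.70) and the cyclin Ccne1 (0.54) were higher, and the cell cycle inhibitor Cdkn1b (-0.56) and the GTPases Gimap1 (-0.46) and Gimap3 (-0.45) lower, with adjusted p = 0.0135, 0.0159, 0.0412, 0.00426, 0.0297 and 0.0227. Without the block these were 0.115, 0.106, 0.104, 0.0583, 0.241 and 0.06.

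**Figure D4:**
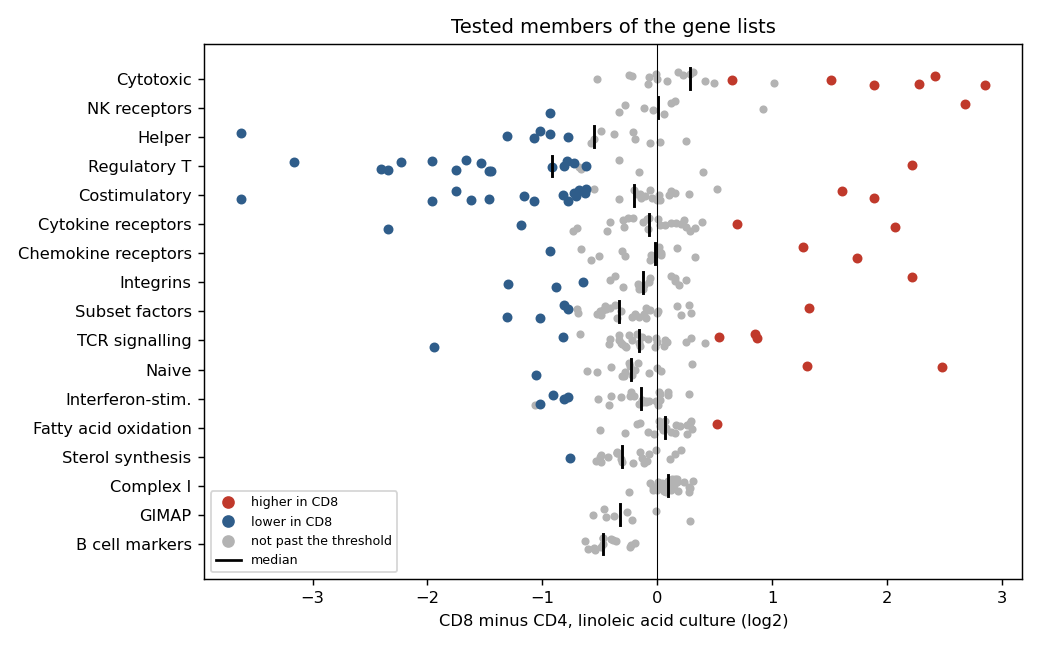
Difference between CD8 and CD4 T cells in linoleic acid culture (horizontal axis, log2) for the tested members of 17 gene lists, 1 point per gene, red where higher and blue where lower in CD8 past the threshold, grey otherwise, with a black bar at the median. Regulatory genes have the lowest median of these lists (-0.92), and B cell markers lie below 0 throughout with none past the threshold.

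Genes less often named with the lineages stood among the largest differences. Slc6a19, a transporter of neutral amino acids best known from gut and kidney, read 7.98, 7.59 and 7.39 in CD8 and 4.61, 5.02 and 4.70 in CD4 arrays, where it lay below the background gauge (2.88 ± 0.18 (SE), adjusted p = 6.19e-07). Bend4, a BEN-domain protein, read 7.98, 7.98 and 7.14 against 5.40, 5.23 and 5.20 (2.42 ± 0.19 (SE), adjusted p = 3.92e-06), and 1.39 as the mean of its 2 probe sets (adjusted p = 9.26e-05). Dnajc15, a mitochondrial chaperone partner that restrains complex I, read 8.94, 8.61 and 8.82 against 6.79, 6.74 and 6.78 (2.02 ± 0.13 (SE), adjusted p = 6.19e-07), with tight groups. Fam241a differed by 2.11, adjusted p = 4.53e-06 and Trim30c, whose mean lay below the gauge, by 1.84, adjusted p = 0.000983.

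On the CD4 side St8sia6, a sialyltransferase, read 6.40, 6.34 and 6.23 in CD8 and 9.87, 9.46 and 9.48 in CD4 arrays (-3.28 ± 0.16 (SE), adjusted p = 1.11e-07). Ecm1, an extracellular matrix protein of type 2 helper cells, read 5.64, 5.54 and 5.20 against 8.27, 8.41 and 7.89 (-2.73 ± 0.16 (SE), adjusted p = 2.71e-07). Itih5, which binds hyaluronan, read 4.23, 5.34 and 4.87 against 6.999, 7.29 and 6.72 (-2.19 ± 0.23 (SE), adjusted p = 6.3e-05), and its CD8 values spread by more than 1 log2 unit around the gauge. Tmem64, a membrane protein, differed by -2.09, adjusted p = 0.000103, the unconventional myosin Myo10 by -1.96, adjusted p = 8.76e-07, the signalling inhibitor Irak3 by -1.86, adjusted p = 0.000114, and Arhgap29 by -1.81, adjusted p = 0.00052. No single array ended any of these 12 calls.

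The control culture, whose arrays are all other than those above, gave the same comparison without the fatty acid. There 280 genes passed (1.95%), 147 higher (1.03%) and 133 lower (0.929%) in CD8. Both cultures called 194 genes, 85 higher and 109 lower in each, which is 66.7% of the linoleic acid calls and 69.3% of the control calls, and 0 were called in opposite directions. Of the 291 genes of the linoleic acid culture 290 had the same sign in control culture. The median control difference was 1.002 for the 103 higher genes and -0.73 for the 188 lower genes. Of the 97 genes called in linoleic acid culture alone 18 were higher and 79 lower in CD8, and of the 86 called in control culture alone 62 were higher and 24 lower.

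Whether the cell type difference itself depended on the culture was tested by the interaction, the difference in linoleic acid minus that in control culture. It passed for 0 of the 14323 genes (0%) in limma, with 336 genes at an unadjusted p under 0.05 and a smallest adjusted p of 0.953. With the block 0 passed too, with 1189 at an unadjusted p under 0.05 and a smallest adjusted p of 0.6004. Of the 97 genes called in linoleic acid culture alone, 10 had an unadjusted interaction p under 0.05 in limma, beside the 336 of all 14323. These 97 were picked by the same values that enter the interaction, so the 10 are no separate evidence. The control differences of the lineage genes were 5.23 for Cd8a, 3.81 for Cd8b1, -4.88 for Cd4, -1.04 for Zbtb7b and 1.11 for Runx3, the last past the threshold there (adjusted p = 0.0251). Values side by side were also close for Nkg7 (2.85 with and 2.68 without the fatty acid), Foxp3 (-3.16 and -3.39), Cd40lg (-3.62 and -3.74) and Il2ra (-2.35 and -2.22). They were further apart for Tob1 (-1.06 and -0.30), Eomes (1.32 and 1.95), Stat2 (-0.78 and -0.30) and Ccr4 (-0.94 and -1.59), differences that the interaction did not pass.

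The smallest interaction p belonged to genes of low level, with means of 4.34 to 5.63 over the 12 arrays. Tmem25 had a cell type difference of 0.24 in linoleic acid and -0.53 in control culture. The uracil glycosylase Ung had -0.15 and 0.50, the lectin-like receptor Klrg2 0.35 and -0.37, Tnfsf4, the ligand of OX40, 0.10 and -0.87 and Osr1 0.35 and -0.32. The adjusted interaction p was 0.953 for each of them. All 5 turned from one side of 0 to the other between the cultures, and none differed between the cell types past the threshold in linoleic acid culture.

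**Figure D5:**
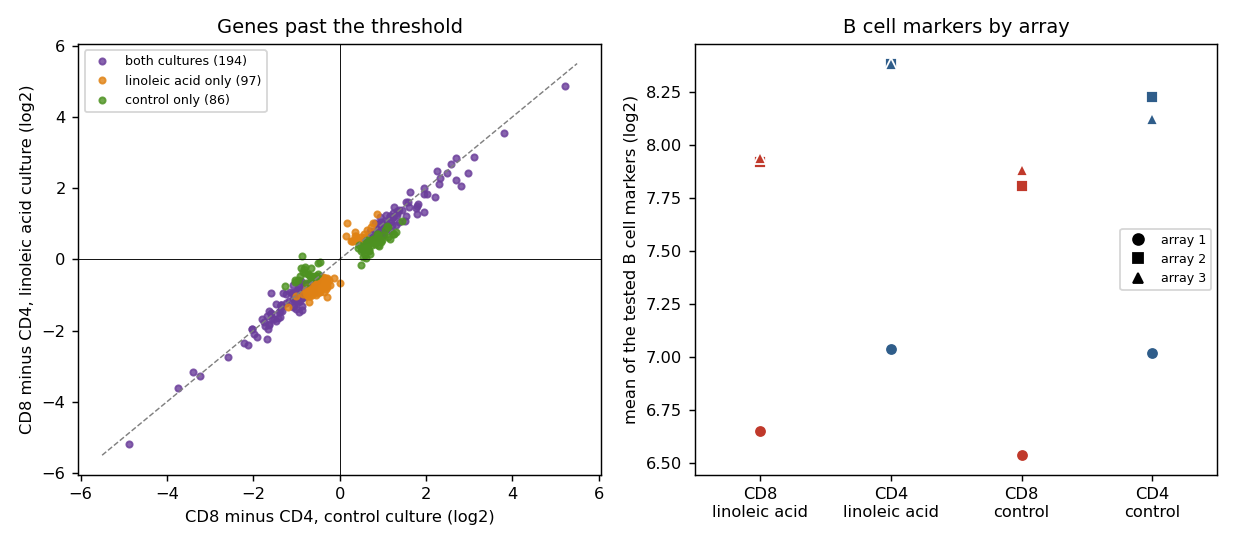
Left: difference between CD8 and CD4 T cells in linoleic acid culture (vertical axis, log2) against that in control culture (horizontal axis, log2) for genes past the threshold in both cultures (194, purple), in linoleic acid alone (97, orange) or in control alone (86, green), with a dashed line of equal differences. Right: mean of 14 B cell markers (vertical axis, log2) on each of the 12 arrays by group, where the arrays numbered 1 lie lowest in all 4 groups.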

How the data were processed

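Total RNA of sorted CD4 and CD8 T cells was prepared with an RNeasy kit, amplified and hybridized to MoGene-2_0-st arrays, per the labels' protocols. The authors deposited log2 intensities of 41345 probe sets on 12 arrays. Per the submitters' processing notes the tool was RMA, a method of background correction, quantile normalization and probe summary, with no software, version or genome build stated in the labels. The values were used as the authors deposited them, and their number, 3 arrays a group, limits the precision.

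Probe sets were named from GEO's platform annotation, where 23521 carried a single symbol, 1814 several and 16010 none, and those with several were not named. Where a gene had more than 1 probe set (1082 of 22180 genes), the brightest set on average over the 12 arrays represented it. Genes with a mean below the 40th percentile of all probe sets (log2 4.28) were left out, and 14323 were tested. List members with no single-symbol probe set or below this limit were not analysed here.

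Group means were contrasted in limma 3.58.1 (R 4.3.3; lmFit, then eBayes, two-sided) with all 12 arrays in 4 groups, with 8 residual and 5.67 prior degrees of freedom, and Benjamini-Hochberg adjustment over the genes tested. The script was tested on simulated data. Replicate numbers were taken to pair the linoleic acid arrays because the deviations of same-numbered CD8 and CD4 arrays from their group means correlated at 0.58, 0.26 and 0.52 across genes. This rests on the data and not on the labels. In control culture the correlations were 0.54, -0.01 and 0.42, so there the pairing was less clear. The block was nevertheless fitted over all 12 arrays, control arrays included, except in the fit of the 6 arrays alone. Named were Cd4, Cd8a, Cd8b1, Zbtb7b and Runx3, the 15 largest differences to each side, up to 6 members past the threshold with the smallest p in each list, up to 3 by value where fewer passed, and the 5 genes with the smallest interaction p. Others were chosen after their values were seen, among them those named as passing with the block alone or as not passing. Predicted genes, receptor segments and small RNAs were counted, not named (17 of the 291). The comparison and the gene lists were chosen with earlier results of these data known. Promoter sequences are those of RefSeq, build GRCm38.p6, matched by symbol. Alternatives were the replicate block, the 6 arrays alone, other filters, quantile normalization or median centring, trend and robust variance, the mean of probe sets, array weights, leaving out arrays and, chosen after the data were seen, the B cell marker mean as a covariate.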

Additional observations from a re-analysis of the deposited data

How the results depend on the processing

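Among the 94 named genes past the threshold in linoleic acid culture, 43 stayed past it and 0 changed sign in all alternatives run. The genes past the threshold in linoleic acid culture were 291 of 14323. They were 798 with the replicate block, 138 in a fit of the 6 arrays alone, 584 in that fit with the block, 644 with array weights and 704 with the B cell marker mean as a covariate, which was chosen after the data were seen. Leaving out 1 array or all arrays of 1 number gave 62 to 322. The lowest count came without all arrays numbered 2, which ended 50 of the named calls, and leaving out CD8 array 1, 2 or 3 gave 322, 198 and 237. The share of higher genes, 35.4%, was 41.3% after quantile normalization and 40.4% after median centring. In control culture 280 genes were 630 with the block, whose numbers pair these arrays less clearly, 567 in 6 arrays with the block and 475 with the covariate, and 65 to 230 with arrays left out. Quantile normalization or median centring ended the calls of Oasl2, Ccr4, Itgb8, Tnfrsf18, Penk, Tnfrsf8, Cd81 and Lgmn. The interaction passed for 0 genes in every fit run. The block ended 0 of the named calls. It also brought genes past the threshold in limma that are not described above. Among them were Btla (adjusted p = 0.00714 with the block and 0.216 without it), Il6ra (0.00983 and 0.21) and Cblb (0.00508 and 0.182). The cause of these shifts was not tested. With 3 arrays a group, differences below the smallest called size, 0.47 on the log2 scale, were not called, and 4495 of the tested genes lay below the background gauge, where the values set no order.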

Other observations

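Genes outside the lists, chosen after their values were seen, also differed between CD8 and CD4 T cells in linoleic acid culture. Cers6, a ceramide synthase that joins long-chain fatty acids to sphingoid bases, read 5.95, 6.21 and 5.79 in CD8 arrays 1, 2 and 3 and 7.64, 7.79 and 7.68 in CD4 arrays 1, 2 and 3, a difference of -1.72 ± 0.15 (SE), adjusted p = 8.84e-06, beside -1.48 in control culture. Pvr, a ligand shared by Cd226 and Tigit, read 6.42, 6.15 and 5.94 against 7.77, 7.68 and 7.49 (-1.48 ± 0.14 (SE), adjusted p = 2.64e-05; control culture -0.94). P2rx7, the ATP-gated channel of T cells, read 5.04, 5.17 and 5.64 against 6.46, 6.72 and 6.46 (-1.26 ± 0.17 (SE), adjusted p = 0.000576), and Tbc1d4, which regulates glucose transporter traffic, read 5.25, 5.31 and 5.40 against 6.82, 6.49 and 6.51 (-1.29 ± 0.14 (SE), adjusted p = 0.000117). Rb1, the retinoblastoma cell cycle brake, differed by -1.31, adjusted p = 0.000576. All of these lay lower in CD8 with no overlap.

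On the CD8 side Epsti1, an interferon-responsive gene, read 10.08, 10.04 and 10.29 against 8.39, 8.54 and 8.68 (1.599 ± 0.12 (SE), adjusted p = 3.85e-06), opposite to the interferon-stimulated genes that passed in the list. Nedd4, a ubiquitin ligase, read 8.001, 8.16 and 7.71 against 5.93, 6.19 and 6.28 (1.83 ± 0.15 (SE), adjusted p = 4.53e-06). Dpp4 (CD26), a surface peptidase, read 10.36, 10.07 and 10.38 against 9.01, 8.996 and 9.10 (1.24 ± 0.13 (SE), adjusted p = 8.29e-05), and Cd7, a lymphocyte surface receptor, differed by 1.54 ± 0.23 (SE), adjusted p = 0.00229. F2r, the thrombin receptor, differed by 1.18, adjusted p = 0.000103 and the potassium channel Kcna2 by 1.43, adjusted p = 0.00306, with Kcna2 at 7.11, 6.56 and 6.03 in CD8 arrays 1, 2 and 3. No single array ended any of these calls.

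The tetraspanin Cd81 and the lysosomal protease Lgmn, both used by B cells or myeloid cells as well, lay lower in CD8 and were lowest on CD8 array 1. Cd81 read 6.86, 8.08 and 8.17 against 8.99, 9.57 and 9.54 (-1.67, adjusted p = 0.0475) and Lgmn 5.09, 6.44 and 6.15 against 7.04, 7.25 and 7.39 (-1.33, adjusted p = 0.0327). The call of Cd81 was lost whichever of the 6 arrays was left out (adjusted p = 0.0514 to 0.205) and Lgmn without CD8 array 1 (0.0554), CD4 array 1 (0.0667), CD4 array 2 (0.127) or CD4 array 3 (0.121). The B cell and myeloid marker means were lowest on CD8 array 1 as well, and their part in these values was not tested.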
